A study of Mus musculus with 2 samples.

Results

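The receptors by which mice smell and sense pheromones were read out in inguinal white fat, the subcutaneous depot of the groin, of H4-TG transgenic mice and of wild-type (WT) mice. All were males of about 8 weeks on chow at room temperature. Each genotype was 1 mouse gene array hybridised with RNA pooled from 4 animals, so no value has a spread between replicates, nothing was tested. The labels state neither what H4 stands for nor what drives the transgene. The rows were those of the authors' deposited table with a symbol that starts with Olfr, Vmn1r, Vmn2r, V1r, V2r or Taar, and 101 of its 869 rows (11.6%) met this rule. They carried 109 receptor symbols. The Olfr family, the odorant receptors of the main olfactory epithelium, had 85 rows, the Vmn1r and Vmn2r families of the vomeronasal organ had 8 rows each, and no row carried a Taar, V1r or V2r symbol. Levels below are log2 signals from the deposited value table of 35556 probes, and differences are H4-TG minus WT.

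Odorant and vomeronasal receptors are G-protein-coupled receptors encoded by some of the largest gene families of the mouse. Each olfactory sensory neuron chooses a single Olfr gene and signals through the G protein subunit Gnal, the adenylyl cyclase Adcy3 and the channel subunit Cnga2. Vomeronasal neurons use the channel Trpc2, with Gnai2 beside Vmn1r receptors and Gnao1 beside Vmn2r receptors. Most of these receptors are not expected in fat. The sum of the signal in a tissue cannot tell fewer expressing cells from less RNA per cell.

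The authors' deposited table lists only rows higher in H4-TG, with a lowest fold ratio of 1.5. The receptor rows were thus selected on the same H4-TG and WT signals that are described here, and the direction and the smallest size of every difference were fixed by how the rows were chosen. Over all 35556 probes, 1518 had at least 1.5-fold more signal in H4-TG, which is 4.27%. Of the 101 rows, 99 were at or above 1.5-fold in the value table, and the other 2 lay just under it and were rounded up. Just inside the threshold, 6 receptor rows differed by 0.583 to 0.588. Just outside it, 52 probes not in the table differed by 0.575 to 0.584, and these have no name in the files. The table is not complete above the threshold either: 849 of the 1518 probes are in it and 669 are not. Among the 669 are probes with identifiers lower than any that the table lists. At a mean log2 signal of 2 to 6, 6.49% of all 15554 probes were higher by at least 1.5-fold. Without such identifiers it was 5.60% of 12654. With those low identifiers counted as unlisted, the listed share of higher probes was 33.7% at a mean log2 signal of 2 to 3. It was 88.5% at 10 to 15. The sources used here do not state what else chose the rows. How far a receptor row differed is therefore a description, and receptors that were lower, within 1.5-fold or not listed have no value here.

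Some rows stand for several receptors at once, whose sequences are given here because their values cannot be split between genes. The probe sequences of the array were not used, so the bases below do not show why a row is shared. Of the 101 rows, 88 carried 1 symbol and 13 several, all of them receptors. RefSeq windows of build GRCm38.p6, reaching from 250 bases before a gene's start to 50 after it, were found for 92 of the 109 symbols. Of the 95 windows of listed receptors, 71 (74.7%) had an ATG at the annotated start, against 5.83% of all 32851 windows, so for most of them the last 50 bases are the first 50 coding bases. Below are these 50 bases for 5 sets of receptors that share a row, with capitals at the positions where the partners differ.
Vmn2r20 and Vmn2r22: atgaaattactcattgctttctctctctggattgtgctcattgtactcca
Vmn1r168 and Vmn1r177: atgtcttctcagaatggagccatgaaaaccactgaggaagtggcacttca
Olfr679 and Olfr681: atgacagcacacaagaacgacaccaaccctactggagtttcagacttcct
Olfr127: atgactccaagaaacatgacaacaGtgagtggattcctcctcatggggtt
Olfr128: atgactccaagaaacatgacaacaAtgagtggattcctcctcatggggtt
Vmn2r25: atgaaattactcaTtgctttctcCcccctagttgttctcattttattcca
Vmn2r26: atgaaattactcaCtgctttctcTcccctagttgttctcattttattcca

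In GRCm38.p6 these lie at chr6:123418012-123418061 (minus strand) for Vmn2r20 and chr6:123650586-123650635 (minus strand) for Vmn2r22, at chr7:23540720-23540769 (plus strand) for Vmn1r168 and chr7:23866400-23866449 (minus strand) for Vmn1r177, and at chr7:105085718-105085767 (plus strand) for Olfr679 and chr7:105121459-105121508 (plus strand) for Olfr681. Olfr127 lies at chr17:37903548-37903597 (plus strand), Olfr128 at chr17:37923568-37923617 (plus strand), Vmn2r25 at chr6:123853141-123853190 (minus strand) and Vmn2r26 at chr6:124024758-124024807 (plus strand). The first 3 pairs were identical over all 50 bases, Olfr127 and Olfr128 over 49, and Vmn2r25 and Vmn2r26 over 48. Among 51 Olfr genes with a row of their own, the median over 1275 pairs was 16 identical positions, with a range of 7 to 49. That comparison holds for the Olfr pairs alone. No such value was taken for Vmn1r or Vmn2r genes, so how far their pairs stand out is not known. The pair Olfr26 and Olfr933 has starts annotated at different codons and could not be lined up in this way, with 14 identical positions of 50.

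Rows with shared symbols were not always copies of each other. The 3 rows of Vmn2r20, Vmn2r21 and Vmn2r22 had exactly equal values, 4.27 on the H4-TG array and 3.66 on the WT array, and stand for 1 measurement, which leaves 99 distinct receptor measurements. The 3 rows that Olfr127 and Olfr128 share with Olfr126 or Olfr761 were not equal: they had 3.45, 4.13 and 4.54 on the H4-TG array, against 2.79, 3.31 and 3.73 on the WT array. Their differences were 0.66, 0.81 and 0.81. The row of Olfr681 and Olfr679 had 4.42 against 3.76, and that of Vmn1r177 and Vmn1r168 had 4.92 against 4.29. Over the 13 rows with several symbols the difference ranged from 0.60 to 1.04.

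The receptor rows were dim. Their median log2 signal was 4.36 on the H4-TG array and 3.66 on the WT array, where the median over all probes was 6.31 on the H4-TG array and 6.34 on the WT array. By the mean of both arrays, 100 of the 101 rows lay below the median of all probes (6.31) and 82 lay below the lower quartile (4.90). The other 768 rows of the authors' table were brighter, with medians of 6.04 in H4-TG and 5.25 in WT, and 501 of them (65.2%) lay below the median of all probes. Of the 33 rows of that table with a mean under 3, 18 were receptors (54.5%). The deposited values carry no detection call, so the rows can be called dim, but whether any receptor was silent is not measured.

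**Figure D1:**
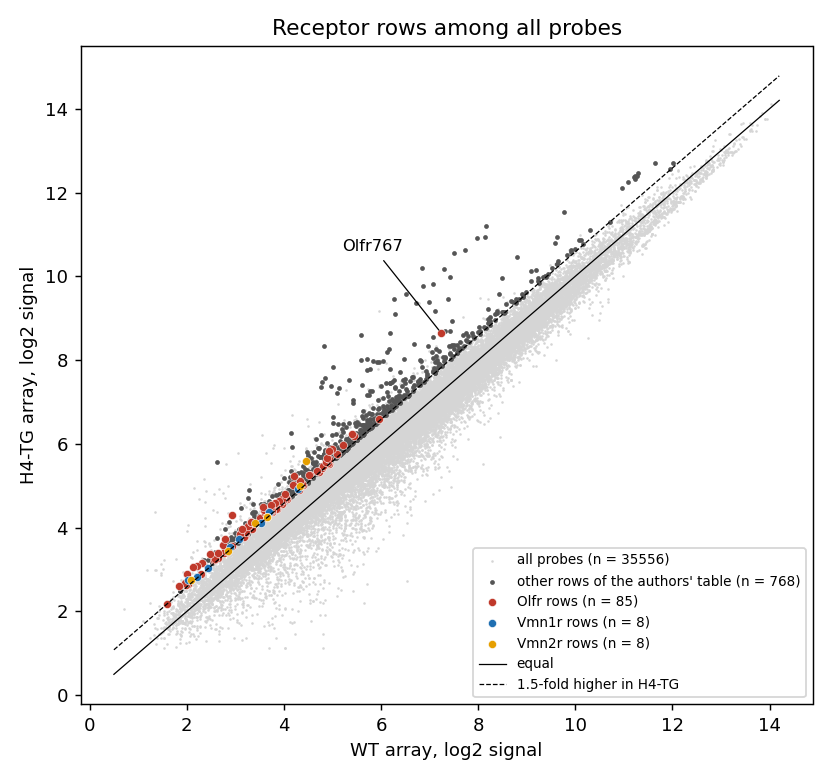
Log2 signal on the H4-TG array (vertical) against the WT array (horizontal) for each probe, with receptor rows coloured by family, the other rows of the authors' table in dark grey and all 35556 probes in light grey. The receptor rows crowd the dim end along the dashed 1.5-fold line, which the choice of rows sets, and Olfr767 stands apart from the rest.

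Olfr767, an odorant receptor gene on chromosome 10, was the exception in level. It had a log2 signal of 8.65 on the H4-TG array and 7.24 on the WT array, a difference of 1.41 or 2.66-fold, the largest among the 101 rows. Its signal stood at percentile 85.8 of all probes in H4-TG and at percentile 64.3 in WT, and it was the 1 receptor row above the median of all probes on both arrays. The row lies at 128516088 to 128517017 on chromosome 10 in the authors' deposited table, whose genome build is not stated. None of the 101 rows overlapped its RefSeq gene in GRCm38, although all 101 were on the same chromosome, so positions from the table are given as it lists them. The nearest listed receptor, Olfr765, had 5.04 in H4-TG and 4.38 in WT, a level well under that of Olfr767. Other listed receptors on the chromosome also lay below the median of all probes, with 3.09 against 2.22 for Olfr804 and 5.51 against 4.93 for Olfr807.

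The windows at the starts of the 3 receptors with 1 symbol and the largest differences are printed next, with the ATG at the annotated start in capitals. Olfr767 is at chr10:129079912-129080211 (minus strand), Olfr591 at chr7:103173586-103173885 (minus strand) and Vmn2r60 at chr7:42116221-42116520 (plus strand), all in GRCm38.p6.
Olfr767: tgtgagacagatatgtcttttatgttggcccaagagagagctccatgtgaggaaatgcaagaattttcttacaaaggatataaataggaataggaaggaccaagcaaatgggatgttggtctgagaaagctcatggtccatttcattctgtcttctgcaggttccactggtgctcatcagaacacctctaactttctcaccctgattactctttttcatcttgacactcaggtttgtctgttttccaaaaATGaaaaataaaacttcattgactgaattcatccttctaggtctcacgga
Olfr591: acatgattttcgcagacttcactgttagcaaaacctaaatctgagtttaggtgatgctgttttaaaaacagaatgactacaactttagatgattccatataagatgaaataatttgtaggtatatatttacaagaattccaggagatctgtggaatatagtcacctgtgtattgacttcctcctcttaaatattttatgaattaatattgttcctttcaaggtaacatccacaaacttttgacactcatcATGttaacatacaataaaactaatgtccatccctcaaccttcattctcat
Vmn2r60: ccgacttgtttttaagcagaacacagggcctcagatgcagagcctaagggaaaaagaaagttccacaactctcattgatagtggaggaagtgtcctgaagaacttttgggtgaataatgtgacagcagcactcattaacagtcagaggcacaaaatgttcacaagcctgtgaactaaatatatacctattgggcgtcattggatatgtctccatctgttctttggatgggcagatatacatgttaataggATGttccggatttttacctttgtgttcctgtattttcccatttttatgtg

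Since the annotated start is a start codon in all 3, the 250 bases before it need not be the promoter. The windows of listed receptors had a median GC content of 36.3%, close to the 35.7% of all 1283 receptor windows and below the 52.7% of all windows. The homeodomain motif TAATTA, a palindrome and so the same on both strands, was in 19 of the 95 listed windows, in 16.5% of all receptor windows and in 5.29% of all windows. These are matches of letters in windows that differ in base composition.

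Only 4 receptor rows reached 2-fold, or 3.96% of the 101. Of the other rows, 138 of 768 did so. Over all probes 0.892% were at least 2-fold higher and 2.37% at least 2-fold lower. These shares cannot be set against the 3.96%, because the receptor rows had already been chosen as higher. Of the 1518 probes at least 1.5-fold higher, 317 reached 2-fold. Of the 1009 such probes with a mean log2 signal of 2 to 6, 186 did. Both are larger shares than 4 of 101, but both sets also hold probes that the authors' table does not list. Of the 1009 probes, 534 are in that table, so the shares are not of like sets. Besides Olfr767, the receptor rows at 2-fold were Olfr591, Vmn2r60 and the row of Olfr441 with the pseudogene Olfr237-ps1. Olfr591 had 4.29 in H4-TG against 2.94 in WT, a difference of 1.35 from a level at percentile 9.66 of all probes by the mean. Vmn2r60, a vomeronasal receptor of the family with a large extracellular domain, had 5.58 against 4.45, a difference of 1.14. Olfr441 with Olfr237-ps1 had 5.24 against 4.20, a difference of 1.04.

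A further 17 receptor rows differed by 0.8 to 1, and 80 by less than 0.8. The odorant receptors with the next largest differences were Olfr347 (3.73 in H4-TG against 2.78 in WT), Olfr1023 (3.07 against 2.13) and Olfr963 (4.50 against 3.57). All 3 lay below the lower quartile of all probes. The brightest after Olfr767 were Olfr320, with 6.58 in H4-TG and 5.96 in WT, Olfr1347, with 6.24 and 5.41, and Olfr1358, with 6.19 and 5.45. Olfr368 had 5.98 in H4-TG against 5.21 in WT, and Olfr1511 had 5.88 against 4.99. The dimmest were Olfr1217, with 2.18 in H4-TG and 1.597 in WT, Olfr910, with 2.60 and 1.84, and Olfr1199, with 2.63 and 1.98. The families overlapped in level and in difference. The median difference was 0.70 over the 85 Olfr rows, 0.63 over the 8 Vmn1r rows and 0.64 over the 8 Vmn2r rows.

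All 8 Vmn1r rows, receptors of the apical vomeronasal neurons, lay below the lower quartile of all probes. The row of Vmn1r177 and Vmn1r168 was the brightest. Vmn1r48 had 4.36 in H4-TG and 3.69 in WT, and Vmn1r211 had 4.12 and 3.53. Vmn1r178 (3.72 against 3.08) and Vmn1r46 (3.54 against 2.90) were dimmer. The row of Vmn1r62 and Vmn1r186 had 3.05 in H4-TG against 2.44 in WT. Vmn1r210 (2.82 against 2.21) and Vmn1r6 (2.75 against 2.02) were the dimmest of the family.

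Among the Vmn2r rows, receptors of the basal vomeronasal neurons, Vmn2r60 was the brightest and the 1 row above the lower quartile. The row of Vmn2r26, a receptor of MHC peptides, and Vmn2r25 had 4.99 in H4-TG and 4.32 in WT. Vmn2r120 had 4.11 against 3.40, Vmn2r111 had 3.43 against 2.85 and Vmn2r99 had 2.76 against 2.08. A pair of Olfr rows named after their values were seen, for the ligands known of their receptors, lay below the lower quartile, as did 67 of the 85 Olfr rows. Olfr73, a receptor of eugenol, had 4.19 in H4-TG against 3.54 in WT, and the row of Olfr151, a receptor of acetophenone that RefSeq annotates as a transcribed pseudogene, and Olfr160 had 3.77 against 3.17.

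**Figure D2:**
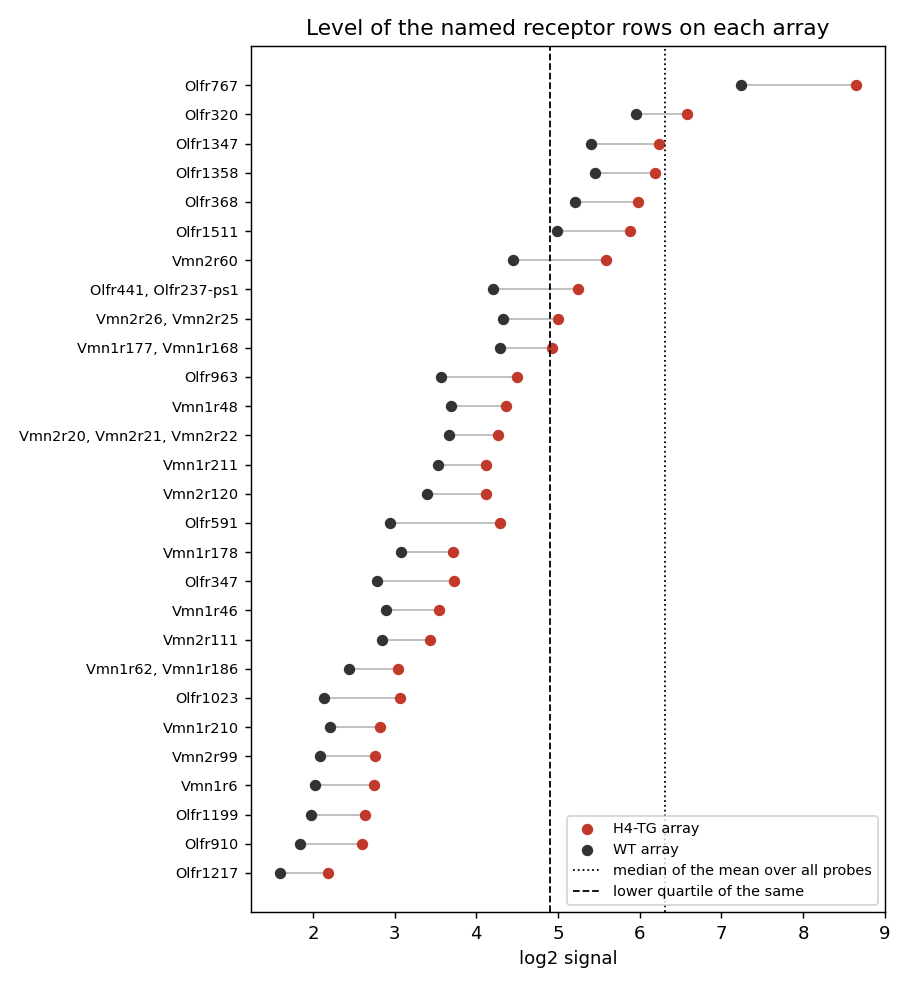
Log2 signal on the H4-TG array (red) and the WT array (black), ordered by the mean of both. Drawn are the Olfr rows with the largest differences and the highest and lowest means, and all Vmn1r and Vmn2r rows. The 3 equal rows of Vmn2r20, Vmn2r21 and Vmn2r22 are drawn once, and receptor rows named for other reasons are not drawn. Vertical lines mark the lower quartile (4.90) and the median (6.31) of all probes, and Olfr767 alone lies above the median on both arrays.

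Chromosome 7 held 20 of the 101 rows (19.8%), against 28.2% of the 1480 protein-coding receptor genes of RefSeq and 8.59% of the other rows. Chromosome 2 held 19 (18.8%, against 19.4% of receptor genes), chromosome 9 held 15 (14.9% against 8.78%) and chromosome 6 held 13 (12.9% against 6.01%). Listed receptors on the same chromosome differed widely in level. On chromosome 2, Olfr1018 had 5.01 in H4-TG against 4.20 in WT and Olfr1023 had 3.07 against 2.13, and over the 19 rows the WT level ran from 1.597 to 5.21. On chromosome 9, Olfr857 (3.36 against 2.47) was near in level to the nearest listed receptor, Olfr859 (3.15 against 2.31). Olfr39, further along, had 4.97 against 4.32. By name, 88 of 1110 protein-coding Olfr genes (7.93%), 10 of 230 Vmn1r genes (4.35%), 9 of 123 Vmn2r genes (7.32%) and 0 of 15 Taar genes were in the authors' deposited table. Of the other protein-coding genes 631 of 20416 (3.09%) were listed. The number of genes of each family on the array is not stated in the files.

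A difference of 1.5-fold between dim signals is small in linear units. The linear signal of Olfr1217 was 4.55 in H4-TG and 3.02 in WT, a difference of 1.52 units. The median difference over the receptor rows was 7.67 units, against 26.4 over the other 768 rows. Of those 768 rows, 438 differed by less than 32 units. Over all 35556 probes, 32483 had less than 32 units more in H4-TG, counting those that were lower. Of the 101 receptor rows, 98 differed by less than 32 units. The 3 that did not were Olfr767, with 401.4 units in H4-TG and 150.9 in WT, Olfr320, with 95.8 and 62.3, and Olfr1347, with 75.4 and 42.4. Summed over the 99 distinct measurements, the receptors gave 2848 units in H4-TG and 1636 in WT. The skeletal muscle genes Acta1, Ckm, Myh4, Myh1, Tnnt3, Actn3, Pvalb, Atp2a1, Mybpc2 and Neb were all in the table, 10 of 10. They summed to 13340 units in H4-TG and 1712 in WT. Of protein-coding genes other than receptors, 3.09% were listed. The muscle list was chosen with earlier results of these data known, so its count is no finding. The part of the muscle genes in the receptor differences was not tested. None of 10 adipocyte markers, Adipoq and Fabp4 among them, was in the table, so no value checks the tissue label.

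**Figure D3:**
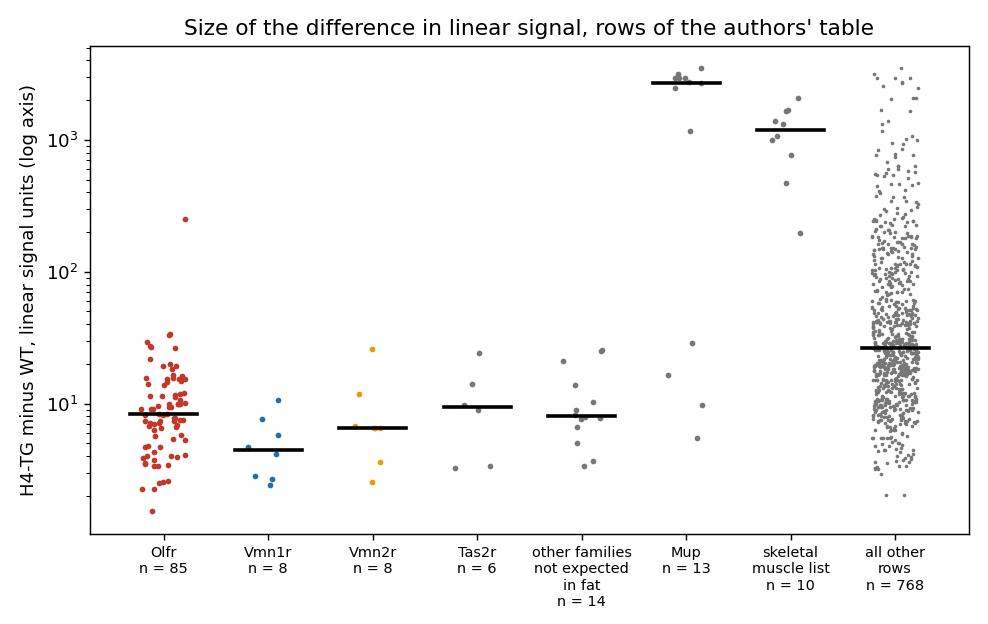
Difference between the H4-TG and WT arrays in linear signal units on a log axis, for rows of the authors' table (1 point per row, line at the median). The medians are 8.40 for Olfr, 4.42 for Vmn1r and 6.58 for Vmn2r rows, against 1194 for the skeletal muscle list, and the last column holds all 768 other rows, those of the lists included.

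Listed rows of other gene families not expected in fat had similar levels. The 6 listed bitter taste receptor genes (Tas2r) had a median of 4.50 in H4-TG and 3.73 in WT, and their differences ran from 0.59 to 0.80. The 14 listed rows of the defensin (Defb), keratin-associated (Krtap), Ceacam, Speer, Ssxb and prolactin (Prl) families had a median of 4.52 against 3.88 and differences from 0.59 to 0.79. None of these 20 rows reached 2-fold, and all lay below the median of all probes. No Obox or Rhox gene was listed.

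Genes that olfactory neurons need beside the receptors were looked up in the same way. None of 24 genes of odorant signalling, receptor trafficking and receptor choice was in the authors' deposited table, among them Gnal, Adcy3, Cnga2, the olfactory marker protein Omp and the transporting protein Rtp1. At the 3.09% listed of protein-coding genes other than receptors, a list of 24 would hold few or none, so the count of 0 says nothing about these genes. They have no value here. Of 17 vomeronasal genes, Trpc2, Gnai2 and Gnao1 among them, 2 were listed, both of the non-classical MHC genes that Vmn2r neurons express. H2-M9 had 7.75 in H4-TG against 5.72 in WT and H2-M10.4 had 4.83 against 4.22. Of the ligands and carriers, no Esp, Obp, Lcn or Bpif gene of the list was there, and 13 rows carried major urinary protein (Mup) symbols. The number of Mup genes on the array is not stated in the files, so the count of 13 has no share to be read against. The 9 of these rows with several symbols all carried Mup1 and Mup2 and are not separate genes. The 9 Mup rows with several symbols ran from 10.93 to 12.71 in H4-TG and from 9.62 to 11.64 in WT, and the 4 with 1 symbol from 3.90 to 5.68 in H4-TG and from 3.24 to 4.49 in WT. Of the other chemosensory receptors, no Fpr-rs, Gucy2d or Tas1r gene was listed, nor were Ms4a4a and Ms4a6c.

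The value table shows how often probes as dim as the receptors differ. Of the receptor rows, 98 had a mean between 2 and 6. In that range the H4-TG signal was higher by 1.5-fold or more for 1009 of 15554 probes (6.49%), and lower by as much for 1373 (8.83%). Among the 19744 probes with a mean of 6 to 15 these shares were 2.55% and 6.58%. The share of higher probes was 7.40% at a mean of 3 to 4, where 33 receptor rows lay, and 1.58% at a mean of 8 to 10, where none did. Over the whole array 7.57% of probes were at least 1.5-fold lower.

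The lowest identifiers of the array, below any in the authors' deposited table, have no name in the files and carried most of the lower side among dim probes. Without them, in the range of 2 to 6, 5.60% of 12654 probes were higher and 2.67% lower. With the lowest identifiers kept, the median difference over all probes in that range was 0.09, and their middle 90% ran from -0.89 to 0.65. The median of the 98 receptor rows there was 0.67, against 0.70 for the 451 other rows of the table. It was 0.74 for all probes at least 1.5-fold higher, the lowest identifiers included. With centring along signal level and without the lowest identifiers, chosen after seeing the data, the shares were 2.92% higher and 4.10% lower. Without these identifiers, which side is larger thus depends on the scaling. With them, the lower share was the larger under each scaling tried.

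**Figure D4:**
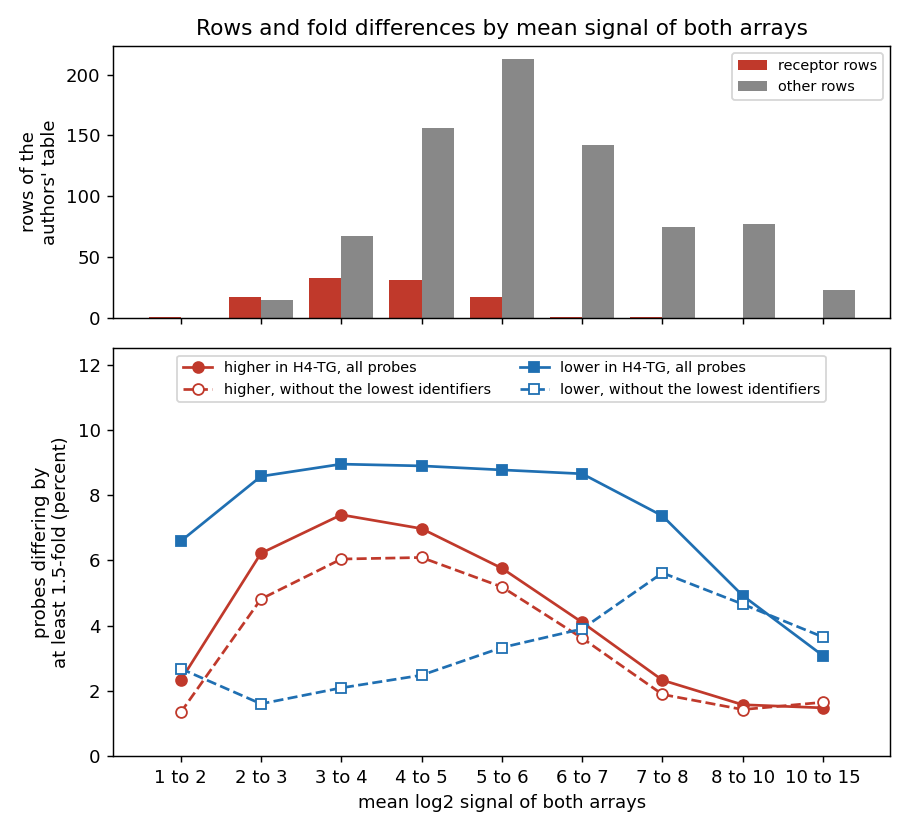
Top, rows of the authors' table by the mean log2 signal of both arrays; bottom, percent of all probes at least 1.5-fold higher (red) or lower (blue) in H4-TG in the same bins, with open symbols for values without the lowest identifiers. Receptor rows fill the bins from 2 to 6, where 6.49% of all probes were higher and 8.83% lower.

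Dim probes also shared differences exactly. Probes with a difference that at least 5 probes share to 5 decimals made up 39.2% of probes with a mean of 2 to 3 and 0.953% of those with a mean of 8 to 10. A difference of exactly 0 was found for 694 probes, among them 14.0% of those with a mean of 1 to 2. Of the 101 receptor rows, 4 (3.96%) had a difference that at least 5 probes shared, against 9.51% of all probes and 1.69% of the other rows of the table. In each bin from 2 to 6 the share over all probes was higher than that of the receptor rows as a whole, from 8.30% at 5 to 6 to 39.2% at 2 to 3. The receptor rows were chosen on their difference and could not have one of 0. The shares are thus not of like sets, and no conclusion is drawn from them. Olfr1217 (2.18 in H4-TG against 1.597 in WT) and Vmn1r211 (4.12 against 3.53) had the same difference, 0.58794, as 6 further probes. Olfr461 (4.37 against 3.77) and the row of Vmn1r62 and Vmn1r186 had 0.60725, a difference found for 9 probes. Among these were H2-M10.4 and Mup5, but also Fam50b, Myo18b, Sp6 and a row of histone genes.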

How the data were processed

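RNA of inguinal fat was extracted with Trizol, pooled from 4 animals per genotype and labelled with biotin, per the labels' protocols. The value table, as deposited, gives each probe's log2 signal on both arrays. The submitters' processing notes name MAS5, with settings and scaling not given in the sources used here. Per the file headers, the authors' deposited table has rounded bi-weight average signals on the log2 scale and the H4TG to CON ratio on a linear scale. All 869 of its H4TG and CON signals lay within 0.005 of the H4-TG and WT columns of the value table. Rows were joined by probe identifier, and 97 receptor rows matched RefSeq (GRCm38) by accession and 4 by symbol, with no symbol changed.

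The receptor rows, lists and comparisons were chosen with earlier results of these data known. Genes given with values were, for Olfr, the 6 rows with the largest difference, the 6 with the highest and the 3 with the lowest mean; all Vmn1r and Vmn2r rows; rows with several symbols as a group; and listed members of the lists. Olfr765, Olfr804, Olfr807, Olfr1018, Olfr857, Olfr859, Olfr39, Olfr461, Olfr73 and the row of Olfr151 were named outside this rule, after their values were seen. No test was planned or run. The plan to print receptor proteins was replaced by RefSeq start windows. Alternatives were median centring, quantile normalization, lowess centring along signal (span 0.3), the authors' values, other row choices, and an offset of 16 units. The centring steps were tested on simulated data with the same shift at every signal level. Centring along signal level was thus not checked on a shift that varies with signal. The number of arrays limits precision. Python 3.11.15, numpy 2.4.6, pandas 2.3.3, statsmodels 0.14.6 and matplotlib 3.10.9 were used.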

Additional observations from a re-analysis of the deposited data

How the results depend on the processing

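The median receptor difference, 0.67 as deposited, was 0.71 with median centring, 0.66 with quantile normalization and 0.59 with centring along signal level, and 4, 4 and 3 rows reached 2-fold. Adding 16 linear units before the logarithm, chosen after seeing the data, gave a median of 0.35, with 1 receptor row at 2-fold and 7 at 1.5-fold in place of 99, while the other rows had a median of 0.54 in place of 0.72. At 1.5-fold in place of 2-fold 99 rows counted, by construction. Below the lower quartile lay 82 rows in place of 100 below the median. Other choices of rows moved no median by 0.1. Because the rows were chosen as higher, that they stayed higher says nothing about stability.

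Of probes with a mean of 2 to 6, the share at least 1.5-fold higher (6.49%) was 7.70% after median centring, 5.95% after quantile normalization, 4.44% after centring along signal level, 5.60% without the lowest identifiers, 2.92% with both of these, and 1.196% at 2-fold. The share lower (8.83%) was 8.26% after median centring, 9.17% after quantile normalization, 10.38% after centring along signal level, 2.67% without the lowest identifiers, 4.10% with both, and 4.03% at 2-fold. At 6 to 15 the higher share (2.55%) was 3.05%, 3.74%, 3.50%, 2.21%, 2.92% and 0.658% in the same order, and the lower share (6.58%) was 5.46%, 4.54%, 4.74%, 4.63%, 3.24% and 1.09%. The cause was not tested. No paired analysis was possible because there is 1 array per genotype, and none could be left out.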
